A study of Mus musculus with 2 samples.

Results

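The deposited splice junction table of adult mouse ovary lists 438382 junctions on the mouse build mm9, each a stretch of genome that sequencing reads skip. In 158708 of them the name carries a flag A equal to 1, whose meaning no source states. Of these flagged junctions, 742 spanned at least 100000 bases, and they were taken as the very long flagged junctions described here, by flag and length alone. They made up 0.468% of the flagged junctions and held 31410 reads, 0.119% of the 26418665 reads of flagged junctions. A further 48364 junctions of the same minimum length lacked the flag.

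All the RNA came from 1 group: ovaries of adult female C57BL/6J littermates, 8 weeks old. Only polyadenylated RNA longer than 200 nucleotides went into the libraries, after ribosomal RNA was depleted, and the libraries were stranded and read for 76 bases from each end. The labels describe 2 libraries as biological replicates but cite 1 donor record for both, so spread between them may be technical. The gene tables of replicate 1 and replicate 2 held 41124064 and 34930872 counts. The junction and contig tables name no sample. Whole ovary mixes many cell types, and fewer cells of a type cannot be told apart from less RNA per cell. Markers of granulosa cells, oocytes and steroid cells were all measured above 0, with the granulosa gene Inha at 7396 and 6279 TPM (a share of all transcripts, scaled for length) in the 2 libraries. Oviduct and fat markers were also present (Ovgp1 at 627 and 528 TPM, Cfd at 2081 and 2772 TPM). Of 5 nervous tissue markers, Mbp was at 15.8 and 18.9 TPM, Syt1, Rbfox3 and Gfap between 0.95 and 1.65 TPM, and Snap25 at 0.02 and 0.09 TPM. The part of these other tissues in the junction reads was not tested.

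An intron is removed from a precursor RNA by the spliceosome, which joins the donor site at the end of one exon to the acceptor site at the start of the next. In very long introns the polymerase has to transcribe the whole stretch before the acceptor exists, so transcription of such a gene takes far longer than its mature RNA length would imply. Very long introns are common in genes for cell adhesion, nervous system development and signalling, often near the 5′ end, where they hold enhancers and alternative promoters. Splicing of such introns leaves a read that crosses the exon join, which is what a junction count records.

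The junction table holds no gene names, and its build differs from that of the gene tables (mm10). Host genes were therefore named by a match of chromosome, strand and exact intron length to GENCODE M21, not by position. Of the 742 junctions, 723 (97.4%) matched introns of exactly 1 gene, 4 matched 2 genes and 15 matched none. Shifting the length by 1 or 2 bases in either direction gave 0, 0, 2 and 0 matches. In 624 of the 723 the neighbouring exon and intron also had a listed junction of matching lengths, and all 703 neighbouring pairs of matched junctions lay in the same order on both builds. The 723 junctions fell in 538 genes, and 711 of them in protein-coding genes. Among unflagged junctions of the same length, 102 of 48364 matched 1 gene. Of flagged junctions of at least 20000 bases, 7344 of 7443 matched an annotated intron length. The high share of matches thus went with the flag and was not particular to very long junctions.

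The sequence across a splice is what a junction read contains. The joins below show it for the most read junctions within coding sequence and for the 2 longest junctions matched to 1 gene. Each is 15 bases of the upstream exon followed by 15 of the downstream exon, 5′ to 3′ in the sense of the gene. The capitals mark the last 2 bases before and the first 2 bases after the join. They come from the GENCODE M21 transcripts, in which the intron between the capital pairs has been removed.
Igsf11, intron 1, chr16:38902673-39007246 (mm9, plus strand): tcgtgtcgctgctCGGTgtcgcaacatccc
Frmd5, intron 1, chr2:121417499-121632465 (mm9, minus strand): acctgcaccatccAGAGagatgccaaaggc
Igf1r, intron 2, chr7:75149242-75309878 (mm9, plus strand): atcgctgccagaaAATGtgcccaagtgtgt
Lhfp, intron 2, chr3:52847614-53035651 (mm9, plus strand): tccagttcctgggGGGCttgctgattggtg
Arhgap28, intron 1, chr17:68250846-68353234 (mm9, minus strand): ccatccgctcagcAGAAaatccattcctcg
Rbms1, intron 1, chr2:60680530-60800747 (mm9, minus strand): tatctgcaagccaAGCAgtctctggtccca
Kcnd2, intron 1, chr6:21167414-21664134 (mm9, plus strand): catgacaacactgGGGTatggcgacatggt
Nlgn1, intron 3, chr3:25339000-25811563 (mm9, minus strand): ggcttggggtactTGGCttcttgagcacag
Over all 723 joins the upstream exon ended in AG in 422 (58.4%), against 55.4% of 249006 annotated introns of protein-coding genes. The downstream exon began with G in 317 (43.9%), against 47.9%.

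Most of the very long junctions were read few times, and a small number carried most of the reads. The median was 9.5 reads per junction (95% order-statistic interval 8 to 11), with quartiles of 2.25 and 35.8 and a maximum of 928. A single read supported 122 junctions (16.4%), 371 (50%) had at least 10 reads and 82 (11.1%) had at least 100. The 10 most read junctions held 20.4% of all the reads and the 50 most read held 52.7%. Across all flagged junctions the median was 26 reads, with 8.88% at 1 read and 27.5% at 100 or more. Unflagged junctions of at least 100000 bases had a median of 1 read, and 86.1% of them had only 1. The very long flagged junctions lay between these sets. Reads are counts, and intervals given here cover counting error only.

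Longer flagged junctions had lower median reads. The median was 42 reads below 1000 bases, 20 from 1000 to 10000, 17 from 10000 to 50000 and 16 from 50000 to 100000 bases. It was then 11 in the 440 junctions of 100000 to 150000 bases, 7.5 in 164 of 150000 to 200000, 8 in 103 of 200000 to 300000, and 4 in the 35 of 300000 bases or more. The decline is one of medians with wide quartiles, and within the 742 junctions the rank correlation of length and reads was -0.15 (Spearman, across junctions of 1 table, which are not replicates). Lengths ran from 100113 to 496721 bases with a median of 138679.

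**Figure D1:**
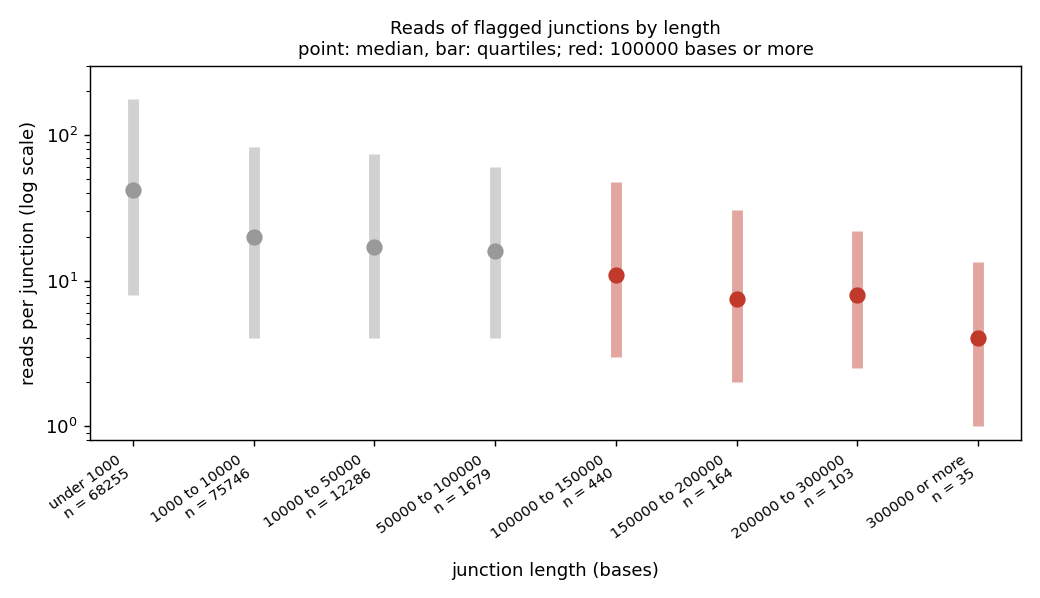
Reads per flagged junction (vertical axis, log scale) in 8 classes of junction length (horizontal axis, bases). Points are medians and bars span the quartiles; the median falls from 42 reads below 1000 bases to 4 reads at 300000 bases or more, and the bars of neighbouring classes overlap.

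Igsf11, an adhesion molecule of the immunoglobulin superfamily, led with 928 reads, of which 453 were in the first read number of the name and 475 in the second. Ghr, the growth hormone receptor, had 812 reads (438 and 374) across a 124991-base intron in its 5′ UTR at chr15:3408009-3532999. Frmd5, a FERM domain protein, had 799 reads (426 and 373) across 214967 bases. These 3 introns were each the first of the matched transcript.

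Pam, the enzyme that amidates peptide hormones, followed with 793 reads (306 and 487) at chr1:99873837-99992061. Tbl1x, a subunit of the nuclear receptor corepressor complex, had 626 reads (268 and 358) at chrX:74756609-74878884. Igf1r, the receptor of insulin-like growth factor 1, had 561 reads (343 and 218) across its second intron. The 2 numbers were close in Igsf11 and differed most in Pam among these leading 6.

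The remaining 6 ranged from 494 to 395 reads. They were Lhfp, a tetraspan membrane protein (494 reads), Arhgap28, a GTPase activating protein (490), and Rbms1, an RNA-binding protein (446). After them came Gpm6b, a proteolipid family membrane glycoprotein (443), Msra, a methionine sulfoxide reductase (418), and Chst11, a chondroitin 4-O-sulfotransferase (395). Igf1r, Lhfp and Msra were the only ones of the 12 whose long intron was not the first of the matched transcript. In Msra it was intron 6, and introns 1 to 5 of that transcript had no listed junction. Its place there thus rests on the transcript matched, not on reads.

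The 6 longest junctions had between 1 and 32 reads. Kcnd2, a potassium channel subunit, had 32 reads (18 and 14) across 496721 bases, and its gene was at 1.94 and 1.92 TPM. A junction of 479455 bases at chr13:110051140-110530594, matched to no gene, had 13 reads (10 and 3). Nlgn1, the synaptic adhesion protein neuroligin 1, had 1 read across 472564 bases at 0.41 and 0.40 TPM. The adhesion gene Ctnna2 (461237 bases, 8 reads), the scaffold gene Grip1 (443292 bases, 10 reads) and the GTPase activating protein gene Arhgap6 (423386 bases, 23 reads) completed the 6 longest. Their reads lay on both sides of the median of 9.5 reads of the 742 junctions and below its upper quartile of 35.8. Just inside the length minimum lay Chchd6 (100113 bases, 22 reads), Bach2 (100130 bases, 3 reads) and an unmatched junction of 100157 bases (35 reads). Just outside it lay Hivep2 (99885 bases, 1 read), Zbtb20 (99770 bases, 7 reads) and Sorcs2 (99699 bases, 3 reads).

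The count of each junction was the sum of the 2 read numbers in its name, and whether these belong to the replicates is not stated by any source. Both were above 0 in 523 of the 742 junctions (70.5%), while the first was 0 in 96 and the second in 123. Over all flagged junctions the first number held 55.3% of the reads, and over the very long ones 51.9%. Each flagged junction with at least 10 reads was compared with the share of 55.3% by a two-sided exact binomial test, adjusted over all 105261 junctions tested. This test compares 2 numbers of 1 junction, not conditions. Calls were made at an adjusted p under 0.05 and are relative to 55.3%, not to equal numbers. Of the 371 very long junctions tested, 28 (7.55%) were called with a higher first share, against 14.5% of all flagged junctions. A lower first share was called in 49 (13.2%), against 10.7%. Measured against the share of the other very long junctions instead, the split was 46 and 39, so its direction rests on the share chosen.

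Calls depended on depth in both sets. From 10 to 30 reads 9.62% of the very long junctions and 7.40% of all flagged junctions were called in either direction. From 100 to 300 reads these shares were 31.1% and 32.1%, and from 300 to 1000 reads 14 of 21 (66.7%) and 51.1%. The 6 with the smallest p all had the higher second number. Gpm6b had 145 and 298 reads, a first share of 32.7% (95% Wilson interval 28.5 to 37.2; exact binomial test, adjusted p = 9.36e-20). Pam had 306 and 487, a first share of 38.6% (35.3 to 42.0; exact binomial test, adjusted p = 2.15e-19). Mast4, a microtubule-associated kinase, had 109 and 221, a first share of 33.0%. The smallest first share of the 6 was in Dner, a Notch-related transmembrane protein, with 7 and 59 reads. Mcu, the pore of the mitochondrial calcium uniporter, had 21 and 94, and Chn2, a Rac GTPase activating protein, 124 and 233. In the gene tables Dner was at 1.89 TPM in replicate 1 and 12.9 in replicate 2, and Pam at 210.04 and 395.9. For Gpm6b the order was the other way, 13.2 and 11.4 TPM. The other introns of the matched Gpm6b transcript all had the higher first number, such as 144 and 95 in intron 2. In Pam, introns 2 and 4 had the higher second number (229 and 246, 129 and 137). All the other listed Pam introns besides the long one had the higher first number. The reason for these differences within a transcript was not tested.

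**Figure D2:**
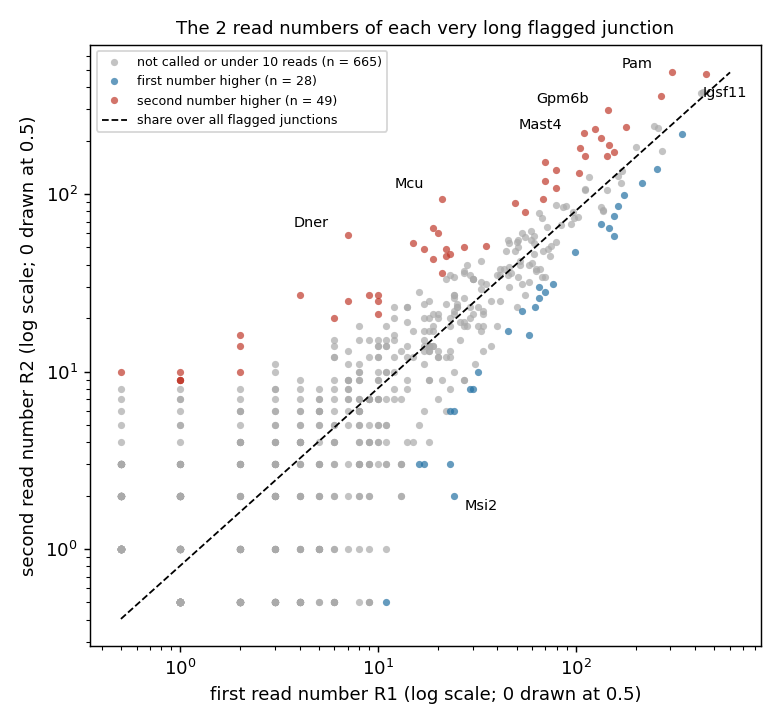
The first read number R1 (horizontal axis) against the second, R2 (vertical axis), for the 742 very long flagged junctions, both in reads on log scales with 0 drawn at 0.5. The dashed line is the share over all flagged junctions. At an adjusted p under 0.05, 28 blue points have a higher first share than this and 49 red points a lower one. Dner (7 and 59) and Mcu (21 and 94) lie well above the line.

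Long introns sat near the 5′ end of their transcripts. Of the 723 matched junctions, 341 (47.2%) were the first intron, 167 (23.1%) the second and 215 a later one, and 68 of the 723 were the last intron of their transcript. Flagged junctions of 20000 to 50000 bases were first introns in 42.1% of 4886, and annotated introns of all lengths in 19.4%. Annotated introns of at least 100000 bases in protein-coding genes were first in 47.2%. The positions of the listed junctions were read from introns of this annotation, so the 2 shares are not independent. The intron interrupted coding sequence in 542 (75%), a 5′ UTR in 111 (15.4%), a noncoding transcript in 68 and a 3′ UTR in 2. Among noncoding hosts, Airn, the antisense RNA of the Igf2r locus, had 2 reads across 117682 bases.

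GENCODE M21 holds 2178 introns of at least 100000 bases, of which 732 (33.6%) were matched by a very long flagged junction. The share followed the level of the host gene. It was 4.85% of 433 introns in genes below 0.1 TPM, 25.2% of 428 from 0.1 to 1 TPM, 49.7% of 664 from 1 to 10 TPM and 51.4% of 527 at 10 TPM or more. The last 2 classes differed little.

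Host genes were expressed at ordinary levels. The median over the 537 with a value, noncoding hosts included, was 5.58 TPM (mean of the 2 libraries). Over the 528 protein-coding hosts it was 5.66, against 4.45 for all protein-coding genes. Of 528 protein-coding hosts, 425 (80.5%) were at 1 TPM or more in both libraries, against 62.0% of all protein-coding genes; a gene needs reads to have a listed junction, so the hosts were not found independently of level. Across the 537 genes the rank correlation of level and junction reads was 0.60 (Spearman, a description, since both come from the same libraries). Igsf11 and Tbl1x reached 928 and 626 reads at 25.8 and 18.3, and 25.2 and 23.3 TPM, whereas Rbms1 had 446 reads at 176 and 161 TPM.

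**Figure D3:**
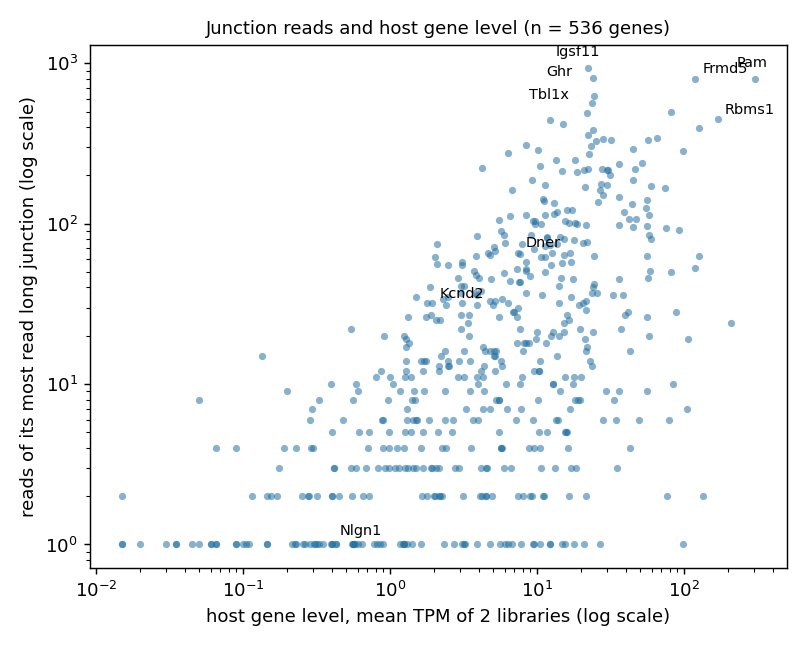
Reads of the most read very long junction of each host gene (vertical axis) against the mean TPM of the gene over 2 libraries (horizontal axis), both on log scales, for 536 genes above 0 TPM. Points rise from left to right with a wide spread: genes near the level of Igsf11 have from a few reads to 928.

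Gene counts of the hosts were compared between the 2 libraries by an exact binomial test with TMM-scaled library sizes (edgeR scaling, Benjamini-Hochberg over 15938 genes), which compares these libraries only. Of the 489 hosts tested, 139 (28.4%) were higher in replicate 2, against 29.2% of all genes, and 127 (26.0%) lower, against 27.0%. Only 12 differed by over 2-fold, 2.45% against 3.97% of all genes. The hosts varied between the libraries about as other genes did.

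Within the lists of gene functions, adhesion genes held the most long junctions. Of 42 genes of cell adhesion, axon guidance and polarity, 36 had at least 1, for 63 junctions with a median of 13 reads. Sema5a, a semaphorin, led with 216 reads (111 and 105), followed by the receptor phosphatases Ptprg with 171 (98 and 73) and Ptprd with 134 (55 and 79). Cyclic nucleotide and kinase signalling had 17 of 25 genes with 26 junctions and a median of 6 reads. Its most read were Pde8b, a cyclic AMP phosphodiesterase (77 and 51 reads in a pair of junctions), Pde3a (62), which degrades cyclic AMP in oocytes, and the kinase gene Prkce (48).

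Cytoskeleton, small GTPases and trafficking had 19 of 31 genes with 26 junctions, led by the adhesion plaque protein Lpp (249 reads), the Rac activator Dock4 (114) and the exocyst gene Exoc6b (104). Transcription and chromatin regulators had 25 of 54 genes with 44 junctions, led by Tbl1x, Bnc2 (113 reads) and the Notch coactivator Maml3 (112). Hormone and growth factor receptors and ligands had 14 of 36 genes with 22 junctions. After Ghr and Igf1r came Prlr, the prolactin receptor, with 218 reads (134 and 84). The RNA binding list had 8 of 18 genes with 13 junctions, or 7 of 17 with 12 without Immp2l, which encodes a mitochondrial peptidase subunit. It was led by Rbms1, Rbms3 (176 reads) and Celf2 (146). Extracellular matrix and proteases had the lowest count, 5 of 29 genes with 1 junction each, led by the laminin chain Lama2 (138), the heparan sulfate polymerase gene Ext1 (119) and Thsd7a (55). The lists hold many genes known for long introns, so these counts describe the lists, and 414 host genes with 524 junctions were in none.

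Several genes were crossed by more than 1 long junction. Of the 538 hosts 411 had 1, 90 had 2 and 37 had 3 or more, with at most 5, as in Cdh13 and Nell1. Cdh13, or T-cadherin, is almost wholly intron, and its 5 long junctions followed each other along the gene. They had 32 reads in intron 1, 92 in intron 2, 38 in intron 5, 104 in intron 6 and 30 in intron 7. The first and second numbers were 44 and 48 in intron 2 but 30 and 8 in intron 5 and 24 and 6 in intron 7. Each took at least 98.9% of the reads at both of its ends. In Nell1 the 5 ran from 1 to 34 reads.

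Elsewhere long junctions of 1 gene were alternatives. In Ghr, 3 donors were joined to 1 acceptor, with 812, 33 and 1 reads, and another junction of 194286 bases passed over that acceptor with 8 reads. In Pde8b, the 2 long junctions had the same donor and acceptors 3 bases apart, with 77 reads (27 and 50) for the shorter and 51 (24 and 27) for the longer. Ends were shared with another junction of the table more often than in flagged junctions at large. The donor was shared in 301 (40.6%, against 25.5%) and the acceptor in 354 (47.7%, against 24.5%). Flagged junctions of 50000 to 100000 bases had similar shares, 43.3% and 53.3%. The partners counted include unflagged junctions. With flagged partners only, 112 donors and 189 acceptors of the very long junctions were shared. All flagged junctions were not counted with that limit, so the contrast with them may rest on unflagged partners. The long junction still took over 50% of the reads at both ends in 560 (75.5%, against 88.7% of all flagged).

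Among the 259 long junctions with at least 20 reads, 52 took under 90% of the reads at the acceptor and 32 at the donor, 15 of them at both. Of the 52, 30 were first introns. These counts were not made over all flagged junctions, nor first introns counted over the 259, so no excess can be read from them. The following were picked for their shares after the values were seen. Rbms1 took 19.5% of the reads at its acceptor (95% Wilson interval 17.95 to 21.19), the main partner being a junction of 38645 bases with 1818 reads. Zfp385b, a zinc finger gene, took 51.4% (46.7 to 56.1) across 199373 bases beside a junction of 15745 bases with 190 reads. Chst11 took 52.7% (49.1 to 56.2), its partner being an unflagged junction 15 bases longer with 343 reads. In each, the acceptor received reads from a near and a far donor or from a pair of neighbouring donors.

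A long junction can also pass over a stretch that other reads include. In 59 of the 742, a flagged junction from the same donor and another to the same acceptor lay inside. The stretch between this inner pair was at most 500 bases, the size of an exon, in 45, and up to 170144 bases in the other 14. The skipping share is the reads of the long junction over these reads plus the mean of the inner pair. In the 45 it had a median of 14.3% and was above 50% in 10, but 11 of the 45 rested on 1 skipping read. All 3 junctions had at least 10 reads in 10 of the 45, with shares from 4.57% to 86.9%. The inner pair was the best read one where there were several. Inner pairs were not counted over all flagged junctions, so the 59 describe the very long junctions only. Of the genes named next, Etv6 and Peli2 were chosen after their values were seen. Tbl1x had 626 reads across the whole stretch and 11 and 9 on either side of an inner stretch of 66 bases, a skipping share of 98.4%. Etv6, an ETS transcription factor, had 63 against 30 and 35 around 159 bases, a share of 66.0%. Peli2, a ubiquitin ligase of innate immunity, was the opposite, with 31 against 188 and 284 around 130 bases, a share of 11.6%.

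Reads along the matched transcripts were uneven, and the long intron was in general neither the most nor the least read. This comparison, the skipping shares above and the coverage inside the introns below were added after the data were seen. It took 310 long junctions in transcripts with at least 6 listed junctions, the others having a median of 10 reads or more. The long junction had 0.776 times the median of the other listed junctions (quartiles 0.255 and 1.73). The minimum was set on the others alone, so P3h2 (188 reads against 6) was left out and Mbnl1 (6 against 577) kept. Introns with no listed junction were not counted either, and both choices favour low ratios. For the 4613 other introns of the same transcripts, each set against the rest of its transcript, this ratio was 1.00 (0.400 and 2.13). A median near 1 follows from that definition, so it is no independent baseline. Very long introns are among the 4613, and an intron counts again for each long junction of its transcript. The ratio was 1.09 in 146 long first introns and 0.603 in 164 later ones. It was 0.546 in the 43 of 200000 bases or more. Other first introns of these transcripts, some of them very long too, stood at 1.10. Their quartiles were 0.563 and 2.677, against 0.352 and 2.685 in the long first introns.

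Of the 12 most read junctions, Lhfp (494 reads against a median of 711.5 in its other introns) and Chst11 (395 against 961) were below the rest of their transcripts, and the others were above, which their choice by reads favours. In Ghr the long junction with 812 reads was followed by 223, 79 and 17 reads in introns 2, 3 and 4, and none of the later introns exceeded 43. In Igsf11, 928 reads were followed by 172, 320, 287, 150 and 3. Frmd5 had 799 reads in intron 1, between 1 and 120 in introns 2 to 10, and 1227 in its last. In Igf1r, introns 2 and 3 had 561 and 672 reads, intron 1 had 44 and the last 302. Ghr, Igsf11, Frmd5 and Tbl1x thus had many reads in intron 1, and Igf1r in introns 2 and 3 but not in intron 1. Frmd5, Tbl1x and Igf1r had many again towards the 3′ end.

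**Figure D4:**
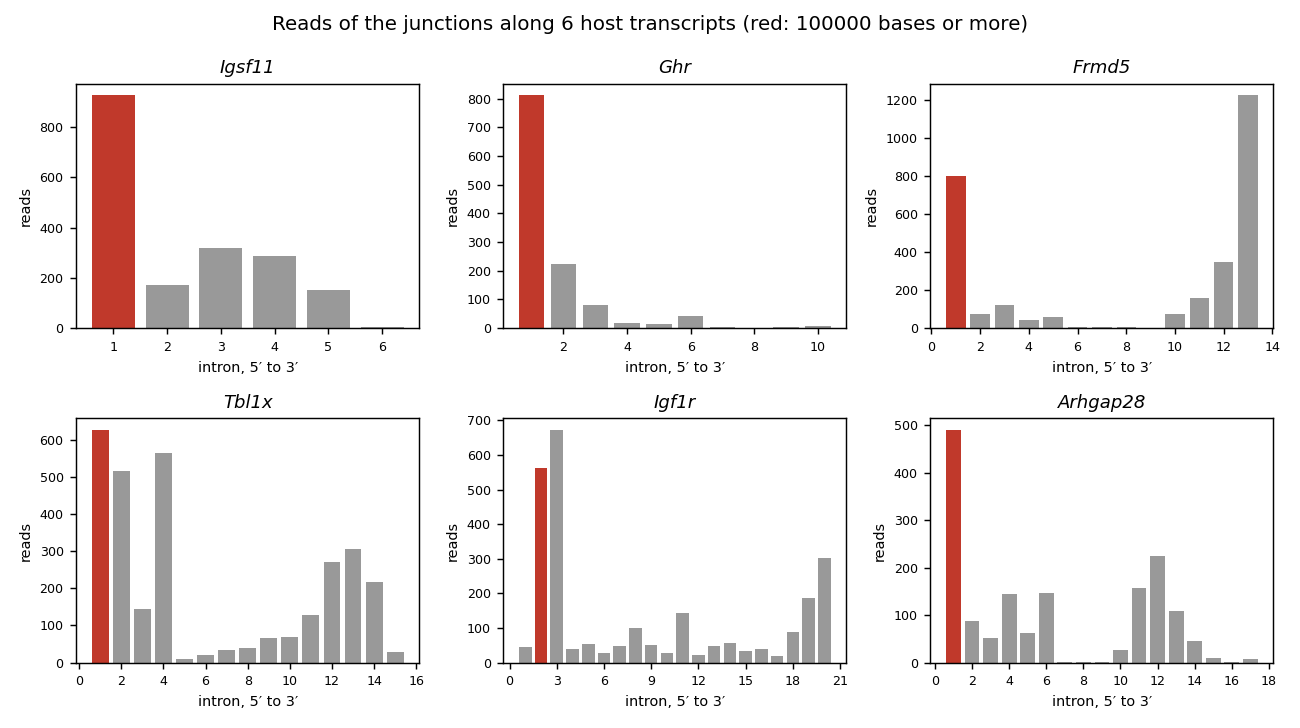
Reads (vertical axis, a scale of its own in each panel) of the junctions that match the introns of 6 host transcripts, numbered 5′ to 3′ (horizontal axis); red bars are junctions of at least 100000 bases. The long junction is the tallest bar in 4 panels; in Frmd5 the last intron with 1227 reads and in Igf1r the third with 672 are taller.

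Contigs, the stretches the authors list as covered by reads on 1 strand, met the 2 ends of long junctions unequally. A same-strand contig had its edge within 5 bases of the donor in 290 junctions (39.1%) and of the acceptor in 492 (66.3%), and of both in 216 (29.1%). Over all flagged junctions these shares were 38.7%, 37.7% and 22.7%, and over unflagged junctions of at least 100000 bases 5.35%, 5.61% and 1.16%. In place of an edge, the end could lie inside a contig that ran on into the intron. This was so at the donor in 50.3% of the long junctions and at the acceptor in 24.4%. Flagged junctions below 1000 bases had 62.3% and 65.8%, those of 10000 to 50000 bases 50.5% and 42.1%, and those of 50000 to 100000 bases 51.9% and 31.2%. The gap between donor and acceptor thus widened with junction length. It was wider in long first introns (66.3% and 26.7%) than in later ones (35.6% and 22.5%).

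The stretch between the ends was covered on the strand of the gene and more near the donor. Same-strand contigs covered a median of 5.38% of it and opposite-strand contigs 0.107%. The same strand was covered more in 689 junctions and the opposite strand in 42. With the stretch divided into 10 equal parts from the donor to the acceptor, the mean same-strand share was 13.5, 11.7, 10.7, 9.89, 9.45, 8.52, 7.75, 6.35, 5.67 and 5.27%. Each part was below the one before it. The first part was covered more than the last in 570 of the 742 junctions, less in 125 and equally in 47.

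The slope was also present where no flagged exon lay inside the intron. In the 541 junctions with no flagged junction inside, the mean went from 12.4% to 3.86%, and the first part was higher in 430 and lower in 67. It held in long first introns (15.2% to 5.66%) and in later ones (11.8% to 4.98%). With 5000 bases at each end left out, the means were 12.9% and 5.30%. Flagged junctions of 50000 to 100000 bases had 16.8% and 8.84%, so the slope was not particular to the longest. Of the leading 12, Chst11 (48.6%), Frmd5 (44.6%), Igf1r (42.2%) and Arhgap28 (41.8%) were covered most and Gpm6b (4.97%) least.

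**Figure D5:**
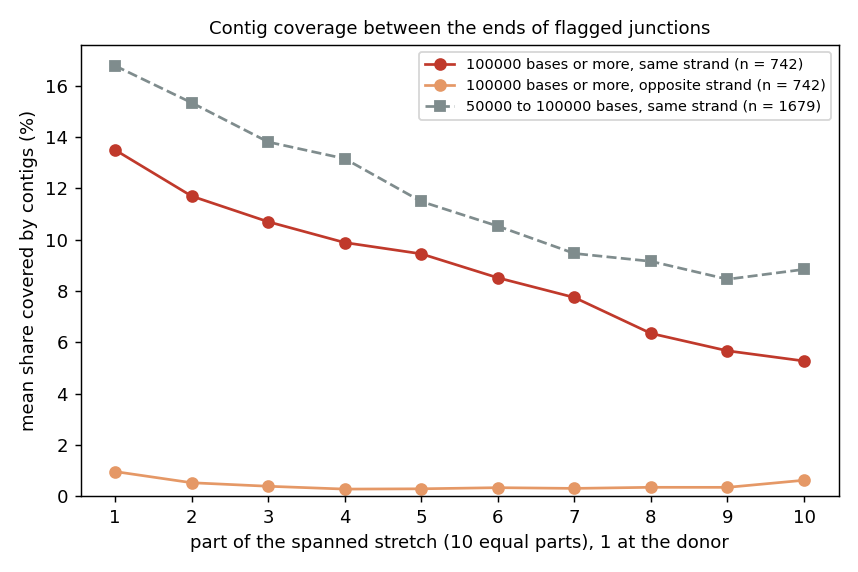
Mean share of the spanned stretch covered by contigs (vertical axis, %) in each of 10 equal parts from the donor to the acceptor (horizontal axis). Same-strand coverage of the 742 very long junctions falls from 13.5% to 5.27%, that of 1679 flagged junctions of 50000 to 100000 bases from 16.8% to 8.84%, and opposite-strand coverage of the 742 stays under 1% in each part.

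Long junctions were spread over the autosomes and the X chromosome, with 367 on the plus and 375 on the minus strand. The Y chromosome and mitochondrial DNA had no flagged junction of any length, so none of the long ones could lie there. Chromosomes 2 and 5 had 55 each. Per 1000 flagged junctions there were 9.09 on chromosome 18, 8.52 on 13 and 8.26 on X, against 4.68 overall and 2.70 on chromosome 11, which has the most flagged junctions.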

How the data were processed

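The authors deposited a junction table and a contig table on mm9; per the file headers and labels neither names a sample. The authors deposited reads per junction as a count, which equals the sum of the 2 numbers in the name, and a significance score whose meaning is not stated. The deposited contig table gives a signal level per contig. The aligner and callers behind both tables, and the scale of the signal, were not given in the sources used here. Per the file headers the deposited gene tables hold expected counts, TPM and FPKM on mm10. Columns of other samples numbered 0. Rows that name no gene took 0.764% and 0.986% of the counts of the 2 libraries and were left out.

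Junction length was the end minus the start as deposited. Donor and acceptor were set by strand. Genes were named by exact intron length on the same chromosome and strand in GENCODE M21. No coordinate was converted between builds. No genome was used, so sequences are exon joins from the GENCODE M21 transcripts, not splice sites within introns as planned. Contigs were counted at an edge within 5 bases. Expected counts were rounded and scaled by TMM (edgeR 4.0.16, R 4.3.3) or, as an alternative, by DESeq2 1.42.0 size factors. Genes averaging 20 counts or more were tested, with Benjamini-Hochberg adjustment at 0.05 (scipy 1.17.1, pandas 2.3.3, Python 3.11.15). Both binomial tests were tested on simulated data. For the balance test the simulated reads had binomial spread only, so its behaviour under wider spread was not examined.

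The text names the 12 junctions with the most reads, the 6 longest, the 6 with the smallest p, 3 on each side of the length minimum and the 3 with the most reads in each gene list. Members and lists were chosen with earlier results of these data known.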

Additional observations from a re-analysis of the deposited data

How the results depend on the processing

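The set depends on its limits: 371 junctions at 10 reads or more, 2421 at 50000 bases, 138 at 200000 bases and 218 with a significance score of 0. The median of 9.5 reads became 14 at 2 reads or more, 36 at 10 or more, 13 at 50000 bases, 7 at 200000 bases and 75 with a score of 0. Of 77 balance calls 16 passed a Bonferroni adjustment (1 with a higher first share, 15 with a lower one). Against the share of the long junctions, 46 were called with a higher first share. With flagged partners only, 112 donors and 189 acceptors were shared, against 301 and 354. Counting only junctions of at least 2 reads as partners gave 204 and 265. Contigs met both ends exactly (0 bases) in 44 against 216. The median host level was 3.93 as FPKM and 8.78 TPM with a minimum of 1 TPM, against 5.58, and 5.42 to 5.62 without 1 library. On the log2 scale it was 2.71 with a pseudocount of 1 and 2.49 with 0.1. Hosts over 2-fold numbered 30 with no count filter, against 12. The share with more coverage in the first of 10 parts than in the last, 76.8%, was 57.1% with contigs of significance score 0 only (lower in 146, higher in 424), 70.75% without 5000 bases at each end, 72.5% in later introns and 87.3% at 10 reads or more; these settings were added after seeing the data. Some other settings also changed counts. Contigs met both ends within 25 bases in 266, against 216, and hosts over 2-fold numbered 8 on the log2(TPM + 1) scale, against 12. No paired analysis was possible because there is 1 group and the junction table names no sample. Depth limits the 122 junctions with 1 read, whose balance and skipping cannot be read.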

Other observations

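Junctions of at least 100000 bases without the flag were mostly single reads, but 786 had at least 10 reads and 100 at least 100. The most read, at chr4:121870932-122132563 (mm9), had 9613 reads (4220 and 5393) across 261632 bases and matched no annotated intron length. It shared neither end with a flagged junction, and no other junction used its ends. Of the 100, 32 had both ends in flagged junctions and 47 had neither.

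Among the 102 unflagged junctions that matched 1 gene by intron length, Zfand3, a zinc finger gene, had the most reads, 100 (56 and 44) across 130014 bases. Kcnma1, a calcium-activated potassium channel, had 64 and Rbfox2, a splicing regulator, 61. Gse1 had 2 such junctions with 49 and 42 reads. Shifts of 1 or 2 bases in length gave from 20 to 31 matches, so some of the 102 are matches of length alone.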
